A study of Homo sapiens with 12 samples.

Results

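The genes described here encode the vacuolar proton pump of the lysosome (V-ATPase) and the nutrient-signalling proteins that work on the lysosomal surface. They were chosen by gene symbol through a rule that used no measured value, but with earlier results of these data known. The set holds 38 genes out of 56337 distinct gene IDs in the deposited table. They are 8 genes for subunits of the membrane sector V0, 9 for subunits of the cytosolic sector V1, 2 for accessory subunits, 5 for Ragulator, 4 for Rag GTPases, 3 for folliculin and its partners (FLCN, FNIP1, FNIP2), 3 for the transcription factors TFEB, TFE3 and MITF, and 4 for the kinase complex mTORC1 and its activator RHEB. All 38 were in the table, and all 38 passed the filter on low values, which asked for a 12-library mean of 1 FPKM or more.

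Polyadenylated RNA was sequenced from wild-type HEK293T cells, a human embryonic kidney line carrying the SV40 large T antigen. Control cells received neither agent. The BafA1 group received bafilomycin A1, a V-ATPase inhibitor, at 10 nM for 24 h; the FAC group was kept for 24 h with ferric ammonium citrate (an iron source that cells take up) at 0.1 mg/ml; and the FAC+BafA1 group received FAC for 24 h and then BafA1 for 24 h. The hours given are treatment times. The total time in culture is not among them and may differ between groups, also between FAC and FAC+BafA1. Each of the 4 groups had 3 libraries, all from 1 cell line. The labels do not say whether the libraries came from separate cultures, so the spread behind each p-value may be technical.

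The V-ATPase couples ATP hydrolysis in V1 to proton transport through V0, and bafilomycin A1 binds V0 and stops the transport. The pump, Ragulator and the Rag GTPases together hold mTORC1 at the lysosome when amino acids are present, where RHEB activates it. FLCN with FNIP1 or FNIP2 acts on RRAGC and RRAGD and so controls phosphorylation of TFEB, TFE3 and MITF; these factors, when not phosphorylated, enter the nucleus and induce lysosomal genes, among them genes of the pump itself.

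Values are FPKM, fragments scaled to transcript length and to the size of the library, as deposited. Within a library they can be compared between genes. Column sums differed between the groups, so small changes between groups depend on the scaling. The column sums were 600261 to 604483 FPKM in the BafA1 libraries and 634935 to 651311 in the other 9, and 13244 to 13597 genes reached 1 FPKM per library. Of 5 markers of HEK293T cells, NEFM, NEFL and INA reached a mean of 1 FPKM and PAX2 and LHX1 did not; the summed level of the 5 was 89.73 to 93.53 FPKM in control, 137.7 to 153.82 with BafA1, 94.68 to 97 with FAC and 105.44 to 109.51 with both. Of 8 keratinocyte or HeLa markers 0 reached that mean, and of 8 fibroblast markers 1 (COL1A1), and the summed level of the blood markers was at most 2.09 FPKM in any library; the fibroblast sum was 3.37 to 3.96 FPKM in the BafA1 libraries and 5.17 to 8.7 in the others, and the part of these shifts in the results was not tested. In the libraries with FAC, 323 entries stood at 0 that were at 1 FPKM or more in every library without it, and 304 entries showed the reverse, so the libraries without and with FAC differ in which gene models hold reads. Comparisons that cross from libraries without FAC to libraries with it may therefore carry a difference in processing. Its part in the results was not tested. BafA1 against control and FAC+BafA1 against FAC do not cross it. The interaction, the difference between these changes, uses libraries on both sides, so a difference in processing need not cancel in it. No gene model in the table that shares exon bases with these genes showed the full pattern, but some were listed at or near 0 on one side of FAC only. Besides those of ATP6V0A1, FNIP1 and TCIRG1, which are given with their results, these included same-strand models sharing 1161 bases with FLCN (0 FPKM in both groups without FAC, 0.127 and 0.197 with it) and 862 bases with ATP6V0C (0 without FAC, 0.127 and 0.077 with it), and an opposite-strand model sharing 71 bases with RPTOR (0.523 and 0.51 without FAC, 0 and 0.02 with it). The RNA is from whole cultures, so fewer cells of a kind and less RNA per cell cannot be told apart.

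In control cells the most abundant of these transcripts was ATP6V1F (V1 subunit F), at 162.1 ± 2.87 FPKM (SD, n = 3), followed by LAMTOR5 at 120.2 ± 5.17, ATP6V0B at 117.9 ± 5.01, ATP6V1G1 at 113.2 ± 3.48 and RHEB at 113 ± 5.6. Each of the 4 that follow ATP6V1F differed from its neighbour by less than the larger SD of the pair, so their order is not resolved. The lowest were ATP6V1G2 at 0.94 ± 0.239 FPKM, TFEB at 1.85 ± 0.444, TCIRG1 at 2.607 ± 0.415 and MITF at 3.2 ± 0.239. Subunit a of V0 is made from alternative genes, and in control cells ATP6V0A1 gave 63.3% ± 3.64 of the summed a-subunit FPKM, ATP6V0A2 30.62% ± 4.31 and TCIRG1, the isoform known from osteoclasts, 6.062% ± 0.833. Among the 3 transcription factors TFE3 gave 66.07% ± 3.65 of the summed FPKM.

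Promoter sequence is shown because TFEB, TFE3 and MITF are known to bind the letters CACGTG, and many lysosomal genes carry a longer palindrome, TCACGTGA with G before it and C after it. The windows are RefSeq promoters of the assembly GRCh38.p14, 300 bases from 250 before to 50 after the gene start, of which 43 windows for 30 of the 38 genes were found. CACGTG, which reads the same on both strands, stood in 10 of the 43 windows (23.3%), which belong to 9 genes, against 7.26% of all 35116 windows and 9.53% of the 14372 windows of tested genes. ATP6V0E2 has overlapping windows that hold the same site, so this site was counted more than once. The longer TCACGTG, which overlaps CACGTG, stood in the same 9 genes, against 3.71% of all windows and 5.5% of those of tested genes. The longer palindrome stood in ATP6V1G1 and RRAGB, against 0.353% and 0.717%. The related TCATGTG was found in 4 windows (9.3%), of ATP6V0C, FNIP2, LAMTOR1 and LAMTOR3, against 2.92% and 1.7%. TGATGNAAT, the letters bound by ATF4, was found in 0 of the 43 windows, against 0.991% and 0.536% (both strands searched). A match is a description of the sequence and does not show that a factor binds there.

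Stretches around the match nearest the gene start are given for 6 genes whose transcripts behaved differently, 5′ to 3′ on the gene's strand, with CACGTG and any flanking T or A in capitals. They lie at chr7:100148882-100148931 (plus strand) for LAMTOR4, chr11:72103435-72103484 (minus) for LAMTOR1, chr7:149872874-149872923 (plus) for ATP6V0E2, chr1:43974899-43974948 (plus) for ATP6V0B, chr5:131797084-131797133 (minus) for FNIP1 and chr1:38859857-38859906 (minus) for RRAGC. The LAMTOR4 stretch runs past the gene start and the others lie before it.
LAMTOR4: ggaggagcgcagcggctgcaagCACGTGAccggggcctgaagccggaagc
LAMTOR1: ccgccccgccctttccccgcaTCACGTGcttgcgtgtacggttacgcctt
ATP6V0E2: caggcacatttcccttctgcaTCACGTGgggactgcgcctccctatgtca
ATP6V0B: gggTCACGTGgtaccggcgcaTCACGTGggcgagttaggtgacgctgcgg
FNIP1: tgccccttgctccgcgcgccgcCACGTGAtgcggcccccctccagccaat
RRAGC: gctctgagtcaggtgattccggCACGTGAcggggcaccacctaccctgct
With BafA1 alone the transcripts of LAMTOR4, LAMTOR1, ATP6V0E2 and ATP6V0B fell, that of FNIP1 rose and that of RRAGC was not called. The other 3 genes with a match were ATP6V0D1 and ATP6V1G1, which fell, and RRAGB, which was not called. Calls thus went in both directions, with FNIP1 the only gene with a match that was called higher. Of the 38 genes, 16 were called lower and 9 higher, and of all genes tested 37.6% and 29.5%. The ATP6V1G1 call was lost under other scalings, as given below. Whether the direction goes with a match was not tested.

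The comparison of BafA1 with control asks how the transcripts of the drug's own target and its signalling partners responded to the drug. Of the 38 genes, 25 were called at a Benjamini-Hochberg adjusted p under 0.05 in limma: 9 higher and 16 lower. Over all 13682 genes tested, 67.1% were called, 29.5% higher and 37.6% lower, so the share of these genes called (65.8%) lay near that of all genes. Their median log2 change was -0.066 and that of all genes -0.042. The split by direction moved with the scaling: it was 12 higher and 14 lower with median-of-ratios scaling, and 13 and 14 after rescaling to TPM. Of the 19 V-ATPase genes 4 were higher and 10 lower, of the 5 Ragulator genes 0 and 4, of the 4 Rag genes 0 and 1, of the 3 FLCN-FNIP genes 2 and 0, of the 3 transcription factors 2 and 0, and of the 4 genes of mTORC1 and RHEB 1 and 1.

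**Figure D1:**
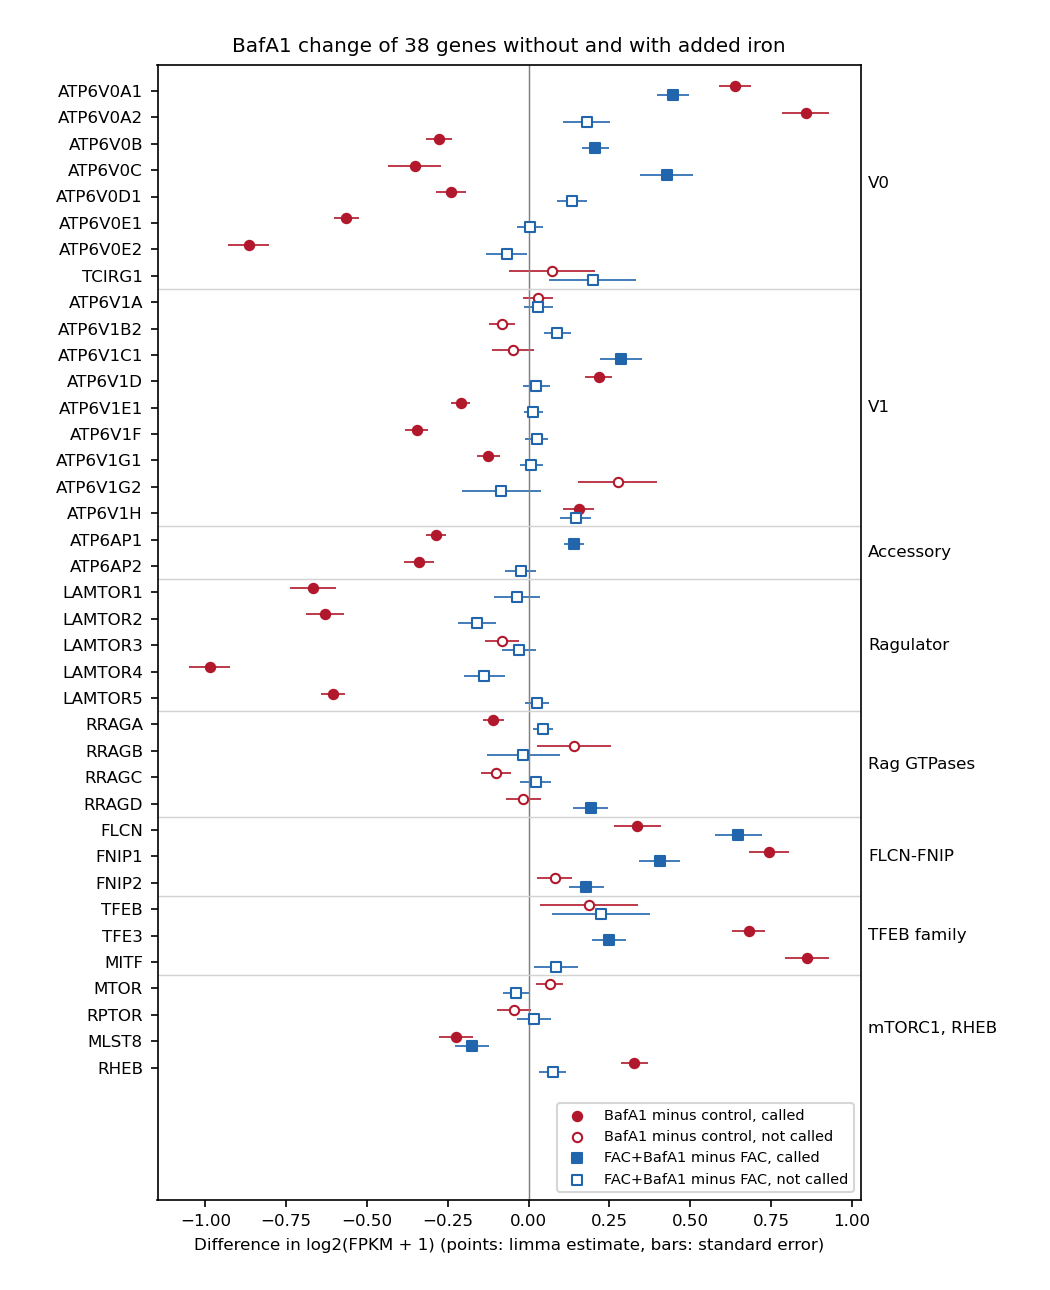
Difference in log2(FPKM + 1) for the 38 genes, for BafA1 against control (red circles) and FAC+BafA1 against FAC (blue squares); points are limma estimates, bars standard errors, filled points called at an adjusted p under 0.05. The Ragulator genes LAMTOR1, LAMTOR2, LAMTOR4 and LAMTOR5 lie left of zero with BafA1 alone, while ATP6V0B, ATP6V0C and ATP6AP1 lie on opposite sides of zero without and with iron.

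Within V0, 5 of 8 genes fell and 2 rose with BafA1. ATP6V0A1 stood at 26.87, 25.16 and 29.52 FPKM in control and at 43.38, 42.3 and 42.77 with BafA1, a log2 change of 0.64 ± 0.05 (SE; adjusted p = 2.6e-07). ATP6V0A2 went from 13.43, 14.46 and 11.43 FPKM to 25.74, 23.3 and 24.37, a 1.87-fold rise with a log2 change of 0.86 ± 0.07 (adjusted p = 5.17e-07). In both genes every BafA1 library was above every control library. These are the membrane subunits whose N-terminal parts contact V1, and they differ in the compartments to which they direct the pump.

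The other called V0 genes moved down. ATP6V0E2, an isoform of the small subunit e, fell from 38.24, 40.43 and 38.91 FPKM to 21.71, 19.79 and 21.68, a log2 change of -0.87 ± 0.06 (adjusted p = 1.46e-07). Its paralog ATP6V0E1 fell from 92.27 ± 1.89 to 62.13 ± 3.08 FPKM (log2 -0.56 ± 0.04, adjusted p = 1e-07). The groups did not overlap for either isoform. ATP6V0B (subunit c'') fell from 117.9 ± 5.01 to 97.07 ± 2.77 FPKM, ATP6V0C (subunit c, which with c'' forms the proton-carrying ring that bafilomycin binds) from 82.75 ± 6.12 to 64.76 ± 7.77, and ATP6V0D1 (subunit d, the link between ring and central stalk) from 49.02 ± 2.47 to 41.32 ± 1.36. The log2 changes of these 3 were -0.28 ± 0.04, -0.35 ± 0.08 and -0.24 ± 0.05, and their adjusted p-values were at most 0.00232. The summed a-subunit FPKM, relative to ATP6V0D1, went from 0.8766 ± 0.046 in control to 1.697 ± 0.0545 with BafA1. TCIRG1 was at 2.607 ± 0.415 and 2.83 ± 0.767 FPKM and was not called.

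In V1, 3 of 9 genes fell and 2 rose. ATP6V1F fell from 159.66, 165.23 and 161.25 FPKM to 125.02, 130.51 and 126.16 (log2 -0.35 ± 0.04, adjusted p = 2.64e-06), with no overlap between the groups. ATP6V1E1, a peripheral stalk subunit, fell from 102.9 ± 1.52 to 88.82 ± 1.58 FPKM (log2 -0.21 ± 0.03), and its stalk partner ATP6V1G1 from 113.2 ± 3.48 to 103.8 ± 3.79 (log2 -0.12 ± 0.04, adjusted p = 0.0079). The ATP6V1G1 call was lost with median-of-ratios, quantile or TPM scaling, with adjusted p-values of 0.258 to 0.527. ATP6V1D, part of the central rotor, rose from 74.17 ± 1.12 to 86.41 ± 3.97 FPKM (log2 0.22 ± 0.04, adjusted p = 0.000552). ATP6V1H, which regulates the ATPase of the assembled pump, rose from 25.39 ± 1.28 to 28.38 ± 1.82 FPKM (log2 0.15 ± 0.05, adjusted p = 0.0125), but without control replicate 3 or BafA1 replicate 3 the adjusted p was 0.0569 or 0.0593. The catalytic subunit ATP6V1A and its partner ATP6V1B2, which form the ATP-binding head, stood at 51.56 ± 2.47 and 32.23 ± 0.318 FPKM in control and 52.59 ± 2.44 and 30.4 ± 0.362 with BafA1. Neither of the head subunits was called, with 95% intervals of the log2 change of -0.07 to 0.13 and -0.17 to 0.01. ATP6V1A was called higher after rescaling to TPM (adjusted p = 0.0369), and ATP6V1B2 lower in a fit of only these groups (adjusted p = 0.0174). ATP6V1C1 was not called either (log2 -0.05 ± 0.07), nor was ATP6V1G2, which is close to the filter's minimum and shares 293 exon bases with a readthrough transcript on its own strand (0.06 FPKM in control, 1.02 with BafA1). ATP6V1G2 also shares 202 exon bases with NFKBIL1 on the opposite strand, which was at 8.42 FPKM in control and 16.733 with BafA1. The part of either overlap in the ATP6V1G2 level was not tested. The ATP6V1G2 change of 0.28 ± 0.12 was called without control replicate 1, FAC+BafA1 replicate 1 or FAC+BafA1 replicate 2, with adjusted p-values of 0.0246 to 0.0452.

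Both accessory subunits fell. ATP6AP1, which helps assemble V0 in the endoplasmic reticulum, went from 77.8, 75.91 and 78.5 FPKM to 63.28, 63.56 and 63.01 (log2 -0.29 ± 0.03, adjusted p = 5.55e-06). ATP6AP2, also known as the prorenin receptor, went from 78.14 ± 0.964 to 61.64 ± 4.52 FPKM (log2 -0.34 ± 0.05, adjusted p = 3.95e-05). Neither overlapped its control values.

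**Figure D2:**
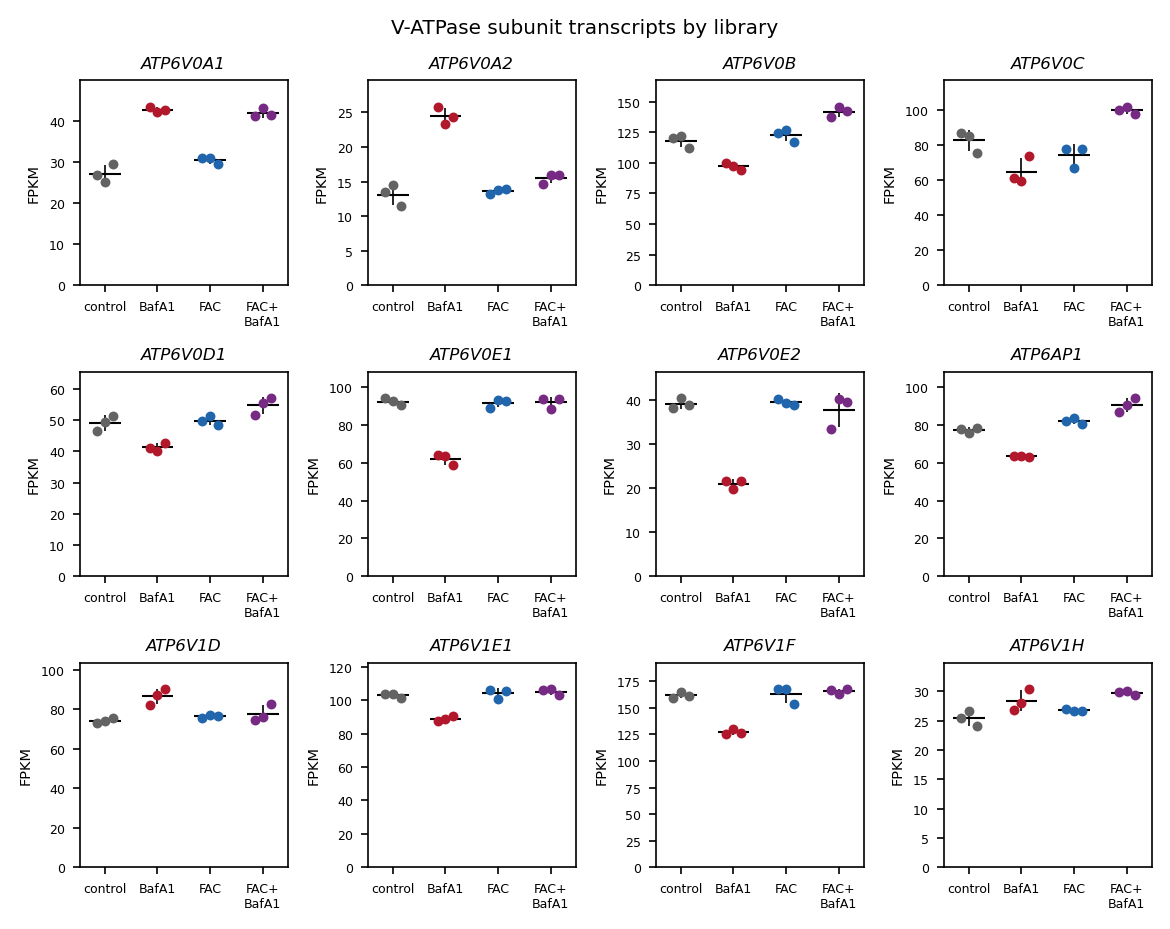
FPKM of 12 V-ATPase genes in each library (points) by group, with group mean (horizontal line) and SD (vertical line); axes start at 0. ATP6V0A1 and ATP6V0A2 are highest with BafA1 or with FAC+BafA1, and ATP6V0E1 and ATP6V0E2 are lowest in the BafA1 group alone.

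Ragulator, the scaffold that anchors the Rag GTPases to the lysosomal membrane, was lower at 4 of its 5 genes. LAMTOR4, at chr7:100148912-100155944 in GENCODE release 44, stood at 104.79, 108.69 and 106.72 FPKM in control and 54.99, 55.08 and 50.18 with BafA1, a log2 change of -0.99 ± 0.06 (adjusted p = 4.75e-08). It shares 356 exon bases with TRAPPC14 on the opposite strand, which was at 6.19 and 7.71 FPKM in these groups; whether counting used the strand is not given in the sources used here. LAMTOR1, the lipid-anchored subunit that holds the others to the membrane, fell from 61.71, 68.49 and 65.07 FPKM to 40.85, 41.81 and 39.21 (log2 -0.67 ± 0.07, adjusted p = 4.33e-06). All BafA1 libraries were below all control libraries for both genes. LAMTOR2 fell from 62.6 ± 3.71 to 40.13 ± 3 FPKM (log2 -0.63 ± 0.06, adjusted p = 1.39e-06) and LAMTOR5 from 120.2 ± 5.17 to 78.61 ± 3.82 (log2 -0.61 ± 0.04, adjusted p = 3.91e-08). LAMTOR3, the partner of LAMTOR2 in a dimer, was at 34.2 ± 1.23 and 32.23 ± 0.983 FPKM with overlapping libraries and was not called (log2 -0.08 ± 0.05, adjusted p = 0.176). The ratio of LAMTOR4 to LAMTOR3 was 3.125 ± 0.171 in control and 1.66 ± 0.134 with BafA1.

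The Rag GTPases, which bind mTORC1 as heterodimers of RRAGA or RRAGB with RRAGC or RRAGD, had small changes. RRAGA fell from 55.18 ± 0.512 to 51.09 ± 0.679 FPKM (log2 -0.11 ± 0.03, adjusted p = 0.00823). Under median-of-ratios and TPM scaling RRAGA was not called (adjusted p 0.33 and 0.759). RRAGB, at 7.703 ± 0.552 and 8.587 ± 0.481 FPKM, and RRAGD, at 13.72 ± 0.644 and 13.56 ± 1.01, were not called. RRAGC was at 18.21 ± 0.692 and 16.91 ± 0.737 FPKM (log2 -0.10 ± 0.05, adjusted p = 0.0774), and it was called lower when control replicate 2 or BafA1 replicate 2 was left out (adjusted p 0.0345 to 0.0454).

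In the FLCN-FNIP group 2 of 3 genes rose. FNIP1 went from 5.89, 5.84 and 6.55 FPKM to 10.6, 10.64 and 11.36, a 1.78-fold rise with a log2 change of 0.74 ± 0.06 (adjusted p = 4.84e-07). It shares 281 exon bases with a coding gene model on its own strand that was at 0.253 FPKM in control, 1.237 with BafA1 and 0 in both groups with FAC. FLCN went from 9.99, 10.06 and 11.88 FPKM to 14.96, 12.95 and 13.15 (log2 0.34 ± 0.07, adjusted p = 0.00123). Neither gene's BafA1 libraries overlapped its control libraries. FNIP2 was at 6.913 ± 0.413 and 7.363 ± 0.197 FPKM and was not called (log2 0.08 ± 0.05, adjusted p = 0.211), although it was called higher with median-of-ratios and TPM scaling (adjusted p 0.0212 to 0.0385).

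Of the 3 transcription factors, 2 rose. MITF went from 3.25, 2.94 and 3.41 FPKM to 6.51, 7 and 6.37, a 2.07-fold rise with a log2 change of 0.86 ± 0.07 (adjusted p = 2.68e-07). TFE3 went from 9.27, 10.27 and 9.95 FPKM to 16.71, 16.25 and 16.08, a 1.66-fold rise (log2 0.68 ± 0.05, adjusted p = 2.26e-07). Both stood clear of control in every library. TFEB was at 2.36, 1.55 and 1.64 FPKM in control and 2.34, 2.28 and 2.04 with BafA1; the groups overlapped and the log2 change of 0.19 ± 0.15 was not called, with a 95% interval of -0.15 to 0.52. The summed FPKM of the 3 was 14.88 ± 0.12 in control and 25.19 ± 0.609 with BafA1.

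Among the mTORC1 genes, RHEB rose from 117.98, 114.09 and 106.94 FPKM to 137.06, 145.51 and 143.31 (log2 0.33 ± 0.04, adjusted p = 1.93e-05), without overlap. MLST8, a stabilising subunit of mTOR complexes, fell from 49.83 ± 1.32 to 42.59 ± 2.87 FPKM (log2 -0.22 ± 0.05, adjusted p = 0.00249). The kinase MTOR, at 21.25 ± 0.193 and 22.28 ± 0.271 FPKM, and RPTOR, the subunit that recruits substrates, at 14.04 ± 0.599 and 13.57 ± 0.0961, were not called, though MTOR was called higher with median-of-ratios and TPM scaling (adjusted p 0.00668 to 0.0185).

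**Figure D3:**
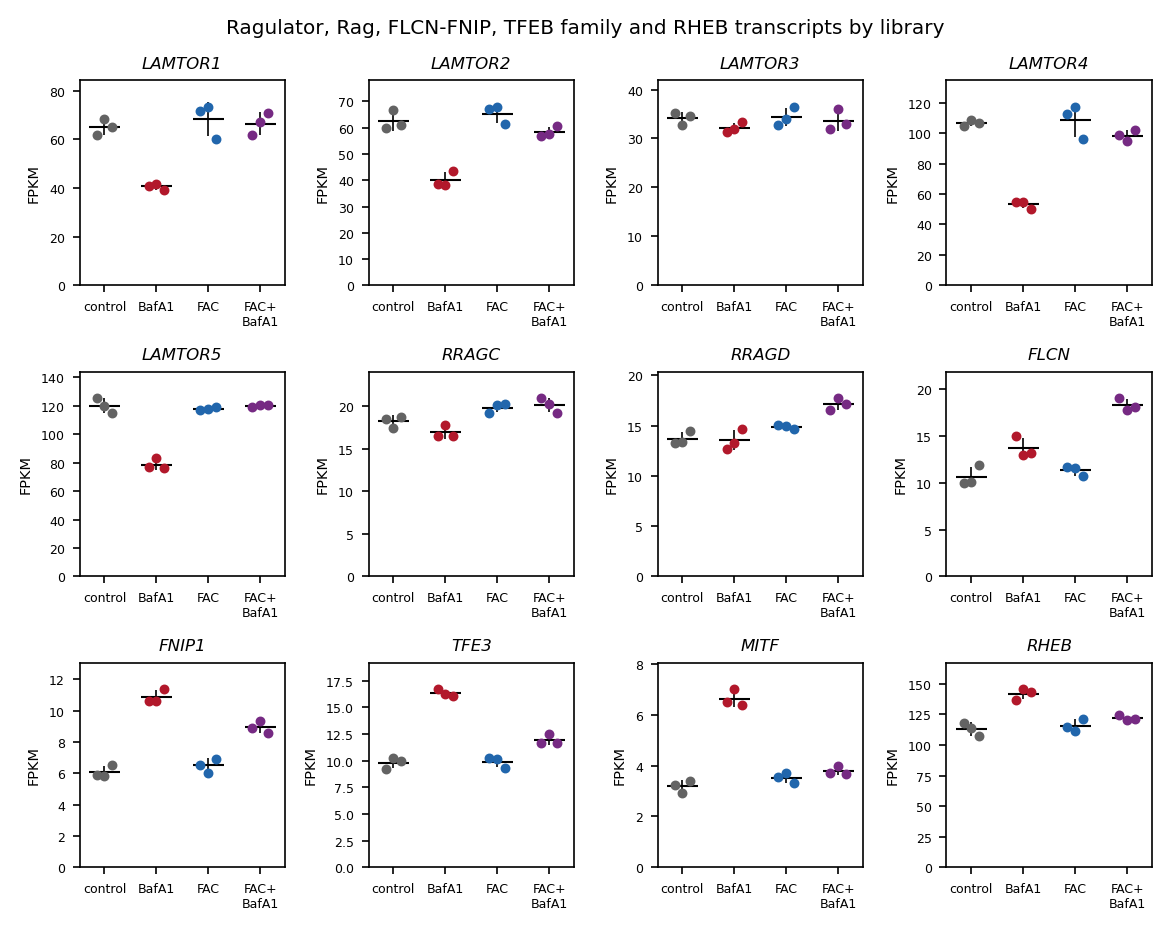
FPKM of 12 genes of Ragulator, the Rag GTPases, FLCN-FNIP, the TFEB family and RHEB in each library (points) by group, with mean (horizontal line) and SD (vertical line); axes start at 0. LAMTOR4 is near 53.42 FPKM in the BafA1 group against 98.35 to 108.6 in the other group means, MITF is highest with BafA1 alone, and FLCN and RRAGD are highest with FAC+BafA1.

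The comparison of FAC with control sets cells given iron alone against untreated cells. It crosses from libraries without FAC to libraries with it. None of the 38 genes was called (0 against 9.56% of all genes tested, 4.72% higher and 4.84% lower), and 4 had an unadjusted p under 0.05. Their log2 changes ran from -0.158 to 0.164, and their 95% intervals from -0.423 to 0.38. The highest was ATP6V0A1, at 31.07, 30.94 and 29.53 FPKM against 26.87, 25.16 and 29.52 (log2 0.16 ± 0.05, adjusted p = 0.0671). Without control replicate 3 this gene was called (log2 0.22, adjusted p = 0.00352), as it was with median-of-ratios scaling (adjusted p = 0.0429). The Ragulator genes lay between -0.026 and 0.064, and the 3 transcription factors between -0.091 and 0.109.

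The comparison of FAC+BafA1 with FAC asks what BafA1 did in cells that had been given iron. It shares no library with the comparison of BafA1 with control. Of the 38 genes, 11 were called, 10 higher and 1 lower (28.9%), against 19.3% of all genes tested (9.76% higher and 9.49% lower). The median log2 change was 0.037 for these genes and 0.001 for all genes. By complex, 5 of 19 V-ATPase genes, 0 of 5 Ragulator genes, 1 of 4 Rag genes, 3 of 3 FLCN-FNIP genes and 1 of 3 transcription factors rose.

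Set side by side, the response to BafA1 differed between cells without and with iron for most of these genes. ATP6V0A1, FLCN, FNIP1 and TFE3 were called higher in both settings, and MLST8 lower in both. ATP6V0B, ATP6V0C and ATP6AP1 were called lower without iron and higher with it. ATP6V1C1, RRAGD and FNIP2 were called higher with iron only, ATP6V0A2, ATP6V1D, ATP6V1H, MITF and RHEB higher without iron only, and 12 genes lower without iron only, among them the 4 Ragulator genes. A call in one setting and not in the other does not show a difference, so the interaction, the BafA1 change with FAC minus that without, was tested for each gene. It was called for 26 of the 38 genes, 19 higher and 7 lower (68.4%), against 50.1% of all genes tested (29.5% higher and 20.6% lower); the split was 14 and 8 with median-of-ratios and with TPM scaling. The median interaction was 0.129 for these genes and 0.065 for all genes. Among genes called in only 1 setting, ATP6V1H had an interaction of -0.008 (adjusted p = 0.927) and FNIP2 of 0.097 (adjusted p = 0.32). Neither was called, so a difference between the settings was not shown for them.

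The ring subunit ATP6V0C was called in opposite directions without and with iron. It stood at 77.65, 66.76 and 77.94 FPKM with FAC and at 99.99, 101.64 and 97.69 with FAC+BafA1, a log2 change of 0.43 ± 0.08 (adjusted p = 0.00401), after -0.35 ± 0.08 without iron. The interaction was 0.78 ± 0.12 (adjusted p = 0.000172). ATP6V0B rose from 124.13, 126.47 and 116.8 FPKM to 137.03, 145.34 and 141.92 (log2 0.21 ± 0.04, adjusted p = 0.0044), and ATP6AP1 from 81.91 ± 1.48 to 90.42 ± 3.56 (log2 0.14 ± 0.03, adjusted p = 0.00904). Their interactions were 0.48 ± 0.06 and 0.43 ± 0.04. For all 3 genes, FAC+BafA1 lay above FAC in every library. ATP6V0C has 4 annotated pseudogene copies, between which reads could have been divided.

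The e subunits and the Ragulator genes were not called in cells given iron. ATP6V0E2 was at 40.14, 39.39 and 38.97 FPKM with FAC and 33.37, 40.33 and 39.59 with FAC+BafA1 (log2 -0.07 ± 0.06, 95% interval -0.21 to 0.07), with an interaction of 0.80 ± 0.09 (adjusted p = 1.86e-05). ATP6V0E1 differed by 0.00 ± 0.04 (95% interval -0.08 to 0.09), with an interaction of 0.57 ± 0.06. LAMTOR4 was at 112.33, 117.07 and 96.27 FPKM with FAC and 98.51, 94.61 and 101.93 with FAC+BafA1; the groups overlapped, and the log2 change of -0.14 ± 0.06 was not called (adjusted p = 0.155). Its interaction was 0.85 ± 0.09 (adjusted p = 1.13e-05). Without FAC replicate 3, the lowest of its group, LAMTOR4 was called lower (log2 -0.22, adjusted p = 0.00968). LAMTOR2 (log2 -0.16 ± 0.06, adjusted p = 0.0791) was called lower without BafA1 replicate 3 or FAC replicate 3 (adjusted p 0.0449 to 0.0477). LAMTOR1 and LAMTOR5 changed by -0.04 ± 0.07 and 0.03 ± 0.04 and were not called, with interactions of 0.63 ± 0.10 and 0.63 ± 0.05.

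FLCN was the gene of this set with the largest log2 change in iron-treated cells. It went from 11.73, 11.54 and 10.7 FPKM with FAC to 19.04, 17.77 and 18.14 with FAC+BafA1, a 1.62-fold rise with a log2 change of 0.65 ± 0.07 (adjusted p = 8.55e-05), against 0.34 ± 0.07 without iron. The interaction of 0.31 ± 0.10 (adjusted p = 0.0226) was lost when BafA1 replicate 2 or 3, FAC replicate 3 or FAC+BafA1 replicate 1 was left out (adjusted p 0.0522 to 0.054), and without the filter or with median-of-ratios or TPM scaling (0.0544 to 0.0828). FNIP1 rose from 6.54, 6.04 and 6.92 FPKM to 8.88, 9.31 and 8.58 (log2 0.40 ± 0.06, adjusted p = 0.000938), less than without iron (interaction -0.34 ± 0.09, adjusted p = 0.00697). FNIP2 rose from 7.463 ± 0.185 to 8.577 ± 0.371 FPKM (log2 0.18 ± 0.05, adjusted p = 0.0399), and RRAGD from 14.89 ± 0.186 to 17.16 ± 0.575 (log2 0.19 ± 0.05, adjusted p = 0.0286). The FNIP2 call was lost without BafA1 replicate 3, any of the 3 FAC replicates, or FAC+BafA1 replicate 2 or 3 (adjusted p 0.0503 to 0.129). The RRAGD call was lost without any of the 3 FAC replicates or FAC+BafA1 replicate 2 or 3 (adjusted p 0.0618 to 0.0989). Omission of the filter and quantile normalization each ended both the FNIP2 and the RRAGD call. A fit of only these groups and a block for replicate number also ended that of FNIP2.

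The a subunits parted. ATP6V0A1 rose from 31.07, 30.94 and 29.53 FPKM to 41.13, 43.25 and 41.4 (log2 0.45 ± 0.05, adjusted p = 9.19e-05). ATP6V0A2 was at 13.19, 13.76 and 13.92 FPKM with FAC and 14.7, 16 and 16 with FAC+BafA1 (log2 0.18 ± 0.07, adjusted p = 0.105), and its interaction was -0.68 ± 0.10 (adjusted p = 0.00018). It was called without control replicate 3 (adjusted p = 0.0365). The share of ATP6V0A2 in the summed a-subunit FPKM was 34.89% ± 0.679 with BafA1 and 25.59% ± 0.717 with FAC+BafA1. ATP6V0A1 shares 125 exon bases with a long noncoding RNA on its own strand, listed at 7.37 FPKM in control and 5.987 with BafA1 but at 0.11 and 0.19 in the groups with FAC. Its part in the ATP6V0A1 levels was not tested; comparisons of BafA1 within a setting do not cross from libraries without FAC to libraries with it. The ATP6V0A1 interaction (-0.19 ± 0.07, adjusted p = 0.0379) was lost on leaving out any 1 of 9 libraries, all except control replicate 3, FAC replicate 3 and FAC+BafA1 replicate 2 (adjusted p 0.0524 to 0.0841).

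TFE3 rose in cells with iron, from 10.23, 10.15 and 9.35 FPKM to 11.65, 12.51 and 11.71 (log2 0.25 ± 0.05, adjusted p = 0.00634), less than without iron (interaction -0.43 ± 0.07, adjusted p = 0.000457). MITF was at 3.527 ± 0.206 and 3.8 ± 0.174 FPKM and was not called (log2 0.08 ± 0.07), with an interaction of -0.78 ± 0.10 (adjusted p = 3.75e-05). TFEB was at 1.667 ± 0.312 and 2.147 ± 0.686 FPKM and was not called in this comparison or for the interaction. RHEB was at 115.8 ± 5.06 and 121.9 ± 2.05 FPKM (log2 0.07 ± 0.04), with an interaction of -0.25 ± 0.06 (adjusted p = 0.00357). MLST8 fell from 52.24 ± 2.91 to 46.13 ± 1.74 FPKM (log2 -0.18 ± 0.05, adjusted p = 0.0374). Leaving out FAC replicate 1 or 2 or FAC+BafA1 replicate 1 or 2 ended the MLST8 call (adjusted p 0.104 to 0.122). So did omission of the filter or of the intensity trend, TPM scaling, a fit of only these groups and a block for replicate number (0.058 to 0.0992).

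In V1, ATP6V1C1, the subunit that bridges the stator and is released when the pump disassembles, rose from 35.98, 42.05 and 40.11 FPKM to 49.06, 46.44 and 49.01 (log2 0.29 ± 0.07, adjusted p = 0.00981), with an interaction of 0.34 ± 0.09. ATP6V1H was at 26.78 ± 0.221 and 29.73 ± 0.351 FPKM, with no overlap and an adjusted p of 0.0517; it was called when control replicate 2 or 3 or BafA1 replicate 1 or 3 was left out (adjusted p 0.0297 to 0.0472). ATP6V0D1 was called without FAC+BafA1 replicate 1 (adjusted p = 0.0356), against 0.0654 with all libraries. The V1 genes ATP6V1E1, ATP6V1F and ATP6V1G1, which fell without iron, changed by 0.01 ± 0.03, 0.02 ± 0.04 and 0.01 ± 0.04 with it.

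FAC+BafA1 was also set against BafA1 alone, which asks what iron did under the drug. This comparison uses the BafA1 libraries again and crosses from libraries without FAC to libraries with it. Of the 38 genes, 27 were called, 21 higher and 6 lower (71.1%), against 67.9% of all genes (38.8% higher and 29.1% lower), and 16 and 8 after rescaling to TPM. The median log2 change was 0.162, and 0.06 over all genes. The largest rises were in LAMTOR4 (log2 0.87 ± 0.06, adjusted p = 1.16e-07), ATP6V0E2 (0.81 ± 0.06), LAMTOR1 (0.70 ± 0.07), ATP6V0C (0.62 ± 0.08) and LAMTOR5 (0.61 ± 0.04). The 6 that fell were MITF (-0.67 ± 0.07, adjusted p = 2.44e-06), ATP6V0A2 (-0.62 ± 0.07), TFE3 (-0.42 ± 0.05), FNIP1 (-0.26 ± 0.06), RHEB (-0.22 ± 0.04) and ATP6V1D (-0.15 ± 0.04). ATP6V0A1 was not called (log2 -0.03 ± 0.05, 95% interval -0.14 to 0.08), and FLCN was higher (0.40 ± 0.07, adjusted p = 0.000349). RRAGC and RRAGD rose by 0.24 ± 0.05 and 0.32 ± 0.05. The rise of ATP6V1C1 (0.18 ± 0.07, adjusted p = 0.0258) was lost without BafA1 replicate 2 or FAC+BafA1 replicate 1 or 3 (adjusted p 0.0706 to 0.106).

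The comparison of FAC+BafA1 with control sets the drug with iron against untreated cells, and it crosses from libraries without FAC to libraries with it. Of the 38 genes, 14 were called, all 14 higher and 0 lower (36.8%), against 32.9% of all genes tested, of which 16.2% were higher and 16.6% lower. The count was 9 without FAC+BafA1 replicate 2, when ATP6V0A2, ATP6V0C, ATP6V0D1, RRAGC and MITF were no longer called. The median log2 change was 0.068, and 0.001 over all genes. The 14 were 7 V-ATPase genes (ATP6V0A1, ATP6V0A2, ATP6V0B, ATP6V0C, ATP6V0D1, ATP6V1H, ATP6AP1), RRAGC, RRAGD, FLCN, FNIP1, FNIP2, TFE3 and MITF. FLCN (log2 0.73 ± 0.07, adjusted p = 4.36e-06), ATP6V0A1 (0.61 ± 0.05, adjusted p = 7.34e-07) and FNIP1 (0.49 ± 0.06, adjusted p = 5.67e-05) had the largest changes. RRAGD followed at 0.30 ± 0.05, from 13.32, 13.37 and 14.46 FPKM to 16.58, 17.73 and 17.16, with every FAC+BafA1 library above control. ATP6V0B rose by 0.26 ± 0.04, ATP6AP1 by 0.22 ± 0.03 and ATP6V1H by 0.22 ± 0.05.

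Several of these calls were lost when single libraries were left out, also libraries outside the comparison, or when a setting was changed. ATP6V0A2 (0.24 ± 0.07, adjusted p = 0.0248) was lost without control replicate 3 or FAC+BafA1 replicate 2 or 3 (adjusted p 0.0779 to 0.0818). ATP6V0C (0.27 ± 0.08, adjusted p = 0.0253) was lost without control replicate 3 or FAC+BafA1 replicate 1 or 2 (0.0633 to 0.0984), and ATP6V0D1 (0.16 ± 0.05, adjusted p = 0.0228) without control replicate 1 or FAC+BafA1 replicate 2 or 3 (0.0717 to 0.0956). RRAGC (0.14 ± 0.05, adjusted p = 0.0423) was lost without control replicate 1 or 2, BafA1 replicate 3, FAC replicate 2 or FAC+BafA1 replicate 1 or 2 (0.0503 to 0.15). MITF (0.19 ± 0.07, adjusted p = 0.0449) was lost on leaving out any 1 of 9 libraries (0.0506 to 0.159). The exceptions were control replicate 3, BafA1 replicate 2 and FAC replicate 3. A fit of only these groups also ended the calls of ATP6V0A2, ATP6V0D1, RRAGC and MITF. Quantile normalization and a block for replicate number ended those of RRAGC and MITF. Omission of the filter ended that of ATP6V0C, and median-of-ratios scaling that of RRAGC. RHEB, at an adjusted p of 0.0627, was called without control replicate 1 or FAC replicate 3 (0.0336 to 0.0439), and TCIRG1 (0.27 ± 0.13) without BafA1 replicate 2 (0.0471). TCIRG1 shares 155 exon bases with a long noncoding RNA on its own strand, listed at 0 in the groups without FAC, 0.283 FPKM with FAC and 0.997 with FAC+BafA1. The Ragulator genes were not called, at log2 changes of -0.117 to 0.029.

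**Figure D4:**
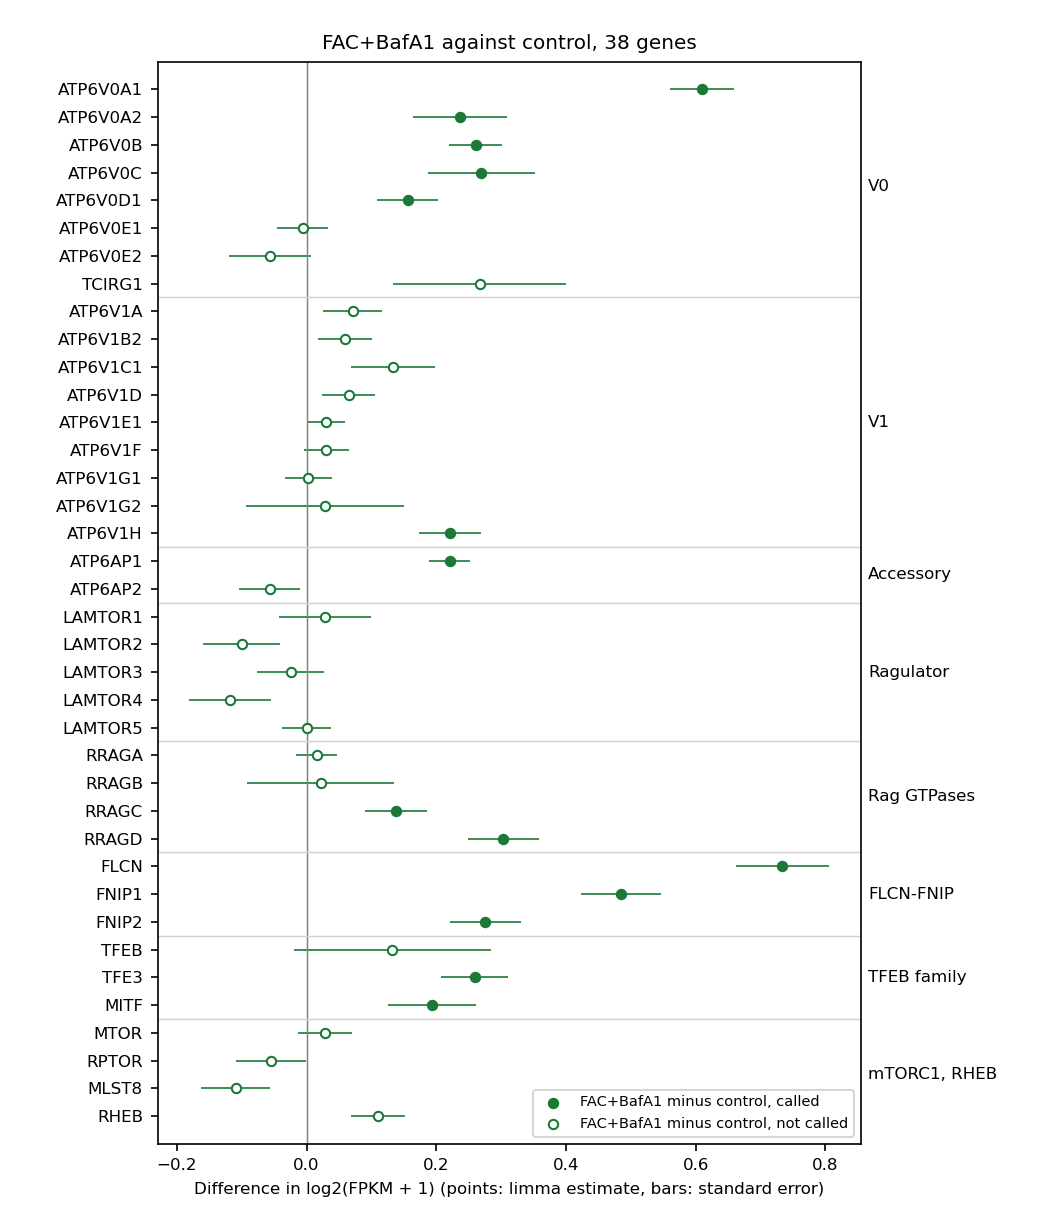
Difference in log2(FPKM + 1) between FAC+BafA1 and control for the 38 genes; points are limma estimates, bars standard errors, filled points called. The 14 filled points all lie right of zero, led by FLCN, ATP6V0A1 and FNIP1, and the 5 Ragulator points lie near or left of zero.

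Other genes of the same pathway were described from lists set by known function, also chosen with earlier results of these data known. Assembly factors and regulators of the V-ATPase gave 2 higher and 5 lower of 11 with BafA1 (63.6% called, near the 67.1% of all genes; median log2 -0.086). NCOA7, which binds V1 and raises pump activity, rose from 6.36 to 15.09 FPKM (log2 1.13 ± 0.07), while the V0 assembly factor CCDC115 fell from 11.63 to 6.993 FPKM (-0.66 ± 0.06) and RNASEK, a small V0-associated protein, from 126.24 to 84.777 (-0.57 ± 0.04). With FAC+BafA1 against FAC, 2 were called (18.2%, against 19.3% of all genes): NCOA7 (0.21 ± 0.07, adjusted p = 0.0493) and RNASEK (0.15 ± 0.04) rose, and 0 fell. Of 6 further V-ATPase isoform genes, 2 passed the filter, ATP6V1C2 and ATP6V1E2, and neither was called with BafA1.

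Among 21 genes of amino acid sensing upstream of the Rag GTPases, 9 were higher and 7 lower with BafA1 (76.2% called, against 67.1% of all genes; median 0.071). SESN2, a leucine-binding inhibitor of mTORC1 signalling, rose from 19.6 to 86.3 FPKM (log2 2.08 ± 0.04, adjusted p = 4.82e-12), the largest change in this list; its interaction was -2.20 ± 0.06. Its relative SESN1 fell from 16.01 to 9.11 FPKM (-0.75 ± 0.07), and BMT2, a sensor of S-adenosylmethionine, rose from 5.953 to 10.43 (0.72 ± 0.07). With FAC+BafA1 against FAC, 2 rose and 2 fell (19% called, against 19.3%): SLC38A9, the lysosomal arginine sensor, rose by 0.26 ± 0.06, while SESN1 and SESN3 fell (-0.40 ± 0.07 and -0.31 ± 0.06). In the list of TSC and mTORC1 partners and substrates, 5 of 11 were higher and 2 lower with BafA1 (63.6% called, against 67.1% of all genes; median 0.012). DDIT4, an inhibitor of mTORC1, rose from 35.87 to 71.74 FPKM (0.98 ± 0.05) and EIF4EBP1, a translation repressor that mTORC1 phosphorylates, from 99.92 to 182.17 (0.86 ± 0.04). With iron DDIT4 fell, from 35.86 to 20.12 FPKM (-0.80 ± 0.05, adjusted p = 1.05e-06), and its interaction was -1.79 ± 0.07.

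Of 9 tested genes that act on TFEB, 2 were higher and 5 lower with BafA1 (77.8% called, against 67.1% of all genes; median -0.146). YWHAZ and YWHAE, 14-3-3 proteins that hold phosphorylated TFEB in the cytosol, fell by 0.54 ± 0.02 and 0.45 ± 0.02, and XPO1, its nuclear exporter, by 0.40 ± 0.03. With FAC+BafA1 against FAC, MCOLN1, the lysosomal calcium channel, rose from 5.633 to 7.897 FPKM (0.42 ± 0.08, adjusted p = 0.00447), and 3 fell (44.4% called, against 19.3% of all genes). Of 18 tested genes known as TFEB targets, 7 were higher and 7 lower with BafA1 (77.8% called, against 67.1% of all genes; median 0.022). GABARAPL1, an autophagosome protein, rose from 19.0 to 45.42 FPKM (1.22 ± 0.08) and WIPI1, another autophagy gene, from 2.9 to 6.38 (0.92 ± 0.09), while the lysosomal protease CTSA fell from 32.59 to 15.05 (-1.07 ± 0.08). With FAC against control 3 rose, NEU1 (0.24 ± 0.04), SQSTM1 (0.16 ± 0.03) and MAP1LC3B (0.10 ± 0.03), and 0 fell (16.7% called, against 9.56% of all genes). With FAC+BafA1 against FAC, 8 of 18 rose and 0 fell (44.4% called, against 19.3% of all genes; median 0.156), among them the lysosomal hydrolases NEU1 (from 18.88 to 28.52 FPKM, 0.57 ± 0.04) and GLA (from 139.63 to 207.74 FPKM, 0.57 ± 0.04). Against control, 11 of 18 were higher with FAC+BafA1 and 0 lower (61.1% called, against 32.9% of all genes; median 0.186), with NEU1 at 0.81 ± 0.04 and SQSTM1 at 0.65 ± 0.03.

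**Figure D5:**
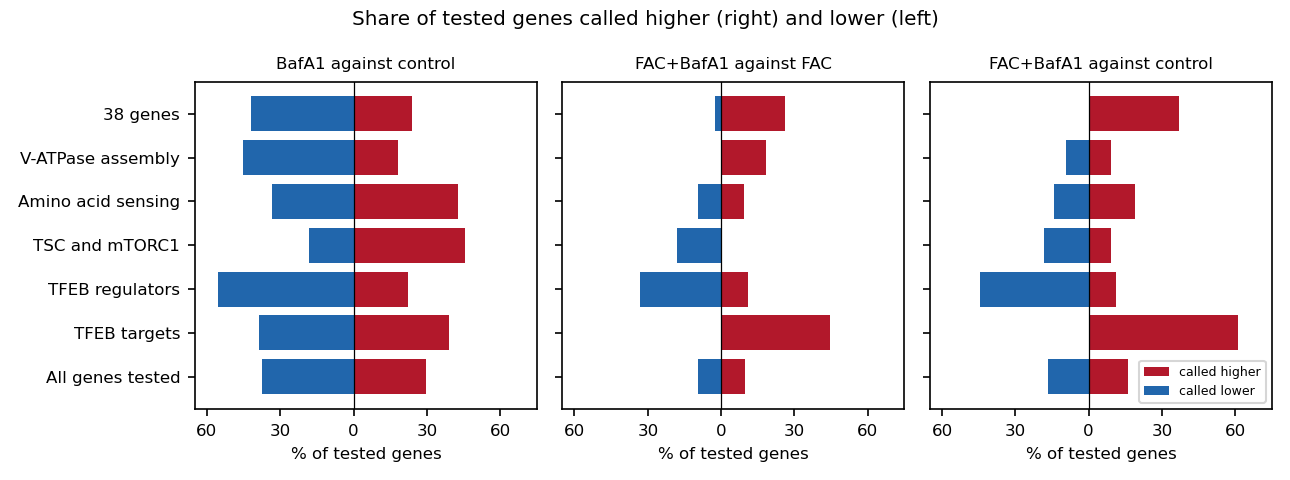
Percent of tested genes called higher (red, right) and lower (blue, left) in 3 comparisons, for the 38 genes, 5 lists of related genes and all 13682 genes tested. With BafA1 alone every list has calls in both directions, and with FAC+BafA1 against control the 38 genes and the TFEB targets have calls only to the right.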

How the data were processed

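RNA sequencing of HEK293T cells gave 12 libraries in 4 groups. The authors deposited FPKM for 56340 gene entries, made with STAR and RSEM on the build GRCh38, per the submitters' processing notes. Versions, annotation release and strand setting were not stated in the labels. Dropped were 3 entries that repeated an ID and were 0 throughout, and 13 symbol fields made of digits were replaced through the gene ID, of which 56104 matched the reference names. FPKM are not counts, so values were transformed to log2(FPKM + 1), which understates the change of low genes. The 13682 genes whose mean reached 1 FPKM were fitted in limma 3.58.1 (R 4.3.3) with a mean per group over all 12 libraries and an intensity trend. P-values are two-sided and were adjusted by Benjamini-Hochberg over all genes tested within each comparison, and genes under 0.05 were called. Folds are ratios of mean FPKM; errors are SDs of FPKM or limma standard errors.

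Depth was estimated from the steps between low FPKM values at 34.5 to 37.75 M fragments per library (M, 10 to the power of 6), but only 52.4% to 67% of the values used fell within 0.2 of a whole fragment, against 40% for random values, so no count was recovered and no count test was run. Replicates of a group correlated at 0.9927 to 0.9952 (Pearson, across genes), and no pair of libraries held identical values. Positions and shared exon bases came from GENCODE release 44, in which 20 of the 38 genes share exon bases with another gene and 8 have annotated pseudogene copies; neither need match the authors' annotation. Promoters came from RefSeq and were searched for fixed letters on both strands.

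All 38 genes could be named, and of each further list, per comparison, up to 3 called genes with the largest change whose groups did not overlap (no overlap rule for the interaction). The 38 genes and all lists were chosen with earlier results of these data known. Alternatives covered the pseudocount, the filter, scaling, the trend, the libraries in the fit, a replicate block and leaving out each library. The fit was tested on simulated data.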

Additional observations from a re-analysis of the deposited data

Results flagged for a closer look

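For 26 of the 38 genes the BafA1 change differed between cells with and without FAC in the interaction test (limma, Benjamini-Hochberg adjusted p under 0.05); 50.1% of all genes tested did so. Values are the log2 change with FAC minus that without. They use libraries on both sides of FAC, so they may carry a difference in processing, whose part was not tested.

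For 19 genes the difference was positive. In Ragulator it was 0.85 for LAMTOR4, 0.63 for LAMTOR1, 0.63 for LAMTOR5 and 0.47 for LAMTOR2. In V0 it was 0.80 for ATP6V0E2, 0.78 for ATP6V0C, 0.57 for ATP6V0E1, 0.48 for ATP6V0B and 0.37 for ATP6V0D1. In V1 it was 0.37 for ATP6V1F, 0.34 for ATP6V1C1, 0.22 for ATP6V1E1, 0.17 for ATP6V1B2 and 0.13 for ATP6V1G1. The accessory subunits ATP6AP1 and ATP6AP2 gave 0.43 and 0.31, and RRAGA, RRAGD and FLCN gave 0.15, 0.21 and 0.31.

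For 7 genes the difference was negative: -0.78 for MITF, -0.68 for ATP6V0A2, -0.43 for TFE3, -0.34 for FNIP1, -0.25 for RHEB, -0.19 for ATP6V1D and -0.19 for ATP6V0A1.

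Some of these calls were lost when a single library was left out or a setting was changed. Besides ATP6V0A1 and FLCN, ATP6V1G1 (adjusted p = 0.0447) was lost on leaving out any 1 of 9 libraries, all except control replicate 3, BafA1 replicate 2 and FAC+BafA1 replicate 2, with adjusted p-values of 0.0607 to 0.104. RRAGD (0.04) was lost without control replicate 3, BafA1 replicate 1 or 2, any FAC replicate, or FAC+BafA1 replicate 2 or 3 (0.0591 to 0.0931). ATP6V1B2 (0.0285) was lost without control replicate 3, BafA1 replicate 3, FAC replicate 2, or FAC+BafA1 replicate 2 or 3 (0.0568 to 0.0697). ATP6V1G2, not called with all libraries, was called without control replicate 1 or FAC+BafA1 replicate 2 (0.0381 to 0.0468). With median-of-ratios and TPM scaling the RRAGA interaction was 0.08 and was not called (adjusted p 0.152 to 0.196). Those scalings and the omission of the filter also ended the calls of RRAGD, ATP6V1B2 and ATP6V1G1.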

How the results depend on the processing

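Across the alternatives, 4726 values of single genes were recomputed: 4539 kept their side of the threshold, 138 lost a call, 49 gained one and 0 called values changed sign; uncalled values near 0 could change sign. The count called with FAC against control went from 0 to 1 with median-of-ratios scaling and without control replicate 3. With single libraries left out, the counts ran from 24 to 26 for BafA1 against control, 0 to 1 for FAC against control, 26 to 28 for FAC+BafA1 against BafA1, 8 to 13 for FAC+BafA1 against FAC, 9 to 15 for FAC+BafA1 against control and 22 to 25 for the interaction. Same-numbered libraries showed no clear shared deviation: their correlations ran from -0.074 to 0.138, with 1 of 18 over 0.1. Of 12 libraries, 5 correlated best with their own number. Pairing by number was therefore not detected, though a weak one could have been missed. With the replicate block the counts were 25, 0, 27, 9, 12 and 24, in the same order. Depth is known only as an estimate. ATP6V1G2, TFEB and TCIRG1, at group means of 0.94 to 3.32 FPKM, had standard errors of 0.12 to 0.15 on the log2 scale between any pair of groups, so small changes in them may not have been detectable.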

Other observations

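ATP6V0D2, the alternative subunit d of V0 known from osteoclasts and macrophages, lay below the expression minimum. It was at 0.04, 0.09 and 0.06 FPKM in control, 1.38, 1.2 and 1.18 with BafA1, 0.12, 0.14 and 0.17 with FAC, and 0.24, 0.41 and 0.33 with FAC+BafA1. Every BafA1 library was above every other library. In the limma fit without the filter its log2 change was 1.08 ± 0.07 with BafA1 against control (adjusted p = 4.45e-07), 0.32 ± 0.07 with FAC+BafA1 against control (adjusted p = 0.00481) and 0.21 ± 0.07 with FAC+BafA1 against FAC (adjusted p = 0.0991). It was picked out after its values were seen. In the same groups the main isoform ATP6V0D1 was at 49.02, 41.32, 49.75 and 54.73 FPKM.

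ATP6V1E2, the testis isoform of the stalk subunit E, was at 6.123 ± 0.587 FPKM with BafA1 and 3.763 ± 0.38 with FAC+BafA1 (log2 -0.58 ± 0.11, adjusted p = 0.0006), with no overlap.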
